A study of Homo sapiens with 4 samples.

Results

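The replication-dependent histone genes were read here as the protein-coding genes of the RefSeq annotation of GRCh38.p14 whose symbols start with H1-, H2AC, H2BC, H3C or H4C and that lie on chromosomes 1, 6 or 12. The rule took 70 of 20037 protein-coding genes. They comprise 7 H1, 17 H2A, 18 H2B, 13 H3 and 15 H4 genes. By position, 34 lie in the large cluster at 6p22, 21 in the small cluster at 6p22, 11 at 1q21, 2 at 1q42 and 1 at 12p12. H1-7 lies alone at 12q13, outside any histone cluster, and is a testis H1 gene rather than a replication-dependent one. H2AC1 and H2BC1 are known for expression in testis too, and H1-6 encodes the testis H1t. H2BC21 and some others also give polyadenylated transcripts, so the label fits most but not all of the 70 genes.

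CHAF1A, the large subunit of the chaperone CAF-1, was mapped by CUT&Tag in RBE, an established human line of intrahepatic cholangiocarcinoma. CUT&Tag uses an antibody to bring a transposase to its target, and the released DNA fragments are sequenced. Cells were transfected with siRNA against CHAF1A (si-CHAF1A, 2 samples) or with control siRNA (si-Ctrl, 2 samples) and collected after 48 hours. Both groups are the same line with the same transfection reagent, and the labels give no untransfected cells. The lists do not show how far CHAF1A itself was lowered, and no library without the antibody is used here. Each group has 1 deposited peak list: the list named si is read as si-CHAF1A and the list named NC as si-Ctrl. With 1 list a group there is no replicate check, and no p-value between the groups is given.

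Replication-dependent histone genes supply the bulk of histone protein in S phase, when DNA is copied. They are short, mostly lack introns and end in an RNA stem-loop in place of a poly(A) tail. Many H2A and H2B genes stand back to back and share the DNA between their 5′ ends. CAF-1 deposits the H3 and H4 proteins they encode on newly copied DNA. H2A, H2B, H3 and H4 form the nucleosome core, and H1 binds the linker DNA between nucleosomes.

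The si-CHAF1A list held 97653 peaks and the si-Ctrl list 76313 on chromosomes 1 to 22, X and Y. The number of reads overlapping at each peak's summit, called the pileup, and its local background were recovered from the fold enrichment and p that the authors gave. The background of the whole genome was 8.49 reads in the si-CHAF1A list and 6.34 in the si-Ctrl list, a ratio of 1.34. Summit heights below are therefore given as pileup over that genome background. A peak at a gene end was found for 64.3% of all protein-coding genes in the si-CHAF1A list and 61.1% in the si-Ctrl list. Of 6 cholangiocyte markers, 4 had such a peak in the si-CHAF1A list and 5 in the si-Ctrl list. None of 5 hepatocyte markers had one in either list. Of 3 fibroblast markers 2 had one in each list, of 4 immune markers 2 in the si-CHAF1A list and 1 in the si-Ctrl list, and of 3 endothelial markers 2 in the si-CHAF1A list and 0 in the si-Ctrl list.

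Promoter sequences of the genes on which the results turn are shown first, to set genes with peaks beside close relatives without. Each run is the 120 bases before the RefSeq start in GRCh38.p14, 5′ to 3′ on the gene's own strand. Capitals mark TATAAA (the TATA box), CCAAT (the CCAAT box), ATTTGCAT (the octamer of H2B promoters), AAACACA (the AC box of H1 promoters) and GGTCC (the core of site II in H4 promoters), on either strand. H2BC11 and H2AC11 stand back to back under the peak of highest fold enrichment among the members. H1-2 had peaks at its ends, the strongest with its summit past the 3′ end, and H1-3 had none. Both promoters hold an AC box and a CCAAT box. H4C8 had a peak in both lists, H4C2 in the si-CHAF1A list only, with its summit past the gene's end, and H4C13 in neither. H2AC18 and H2AC19 are near-identical copies in 1q21 under the tallest peaks.
H2BC11 (chr6:27132796-27132915, minus strand): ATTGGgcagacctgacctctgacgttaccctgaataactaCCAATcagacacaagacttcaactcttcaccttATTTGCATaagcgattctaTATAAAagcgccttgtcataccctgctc
H2AC11 (chr6:27132923-27133042, plus strand): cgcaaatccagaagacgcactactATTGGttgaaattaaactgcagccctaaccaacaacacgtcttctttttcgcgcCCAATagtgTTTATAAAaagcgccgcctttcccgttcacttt
H1-2 (chr6:26056471-26056590, minus strand): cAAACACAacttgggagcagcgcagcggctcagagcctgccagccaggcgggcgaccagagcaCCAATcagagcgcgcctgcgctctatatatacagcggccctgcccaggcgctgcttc
H1-3 (chr6:26234988-26235107, minus strand): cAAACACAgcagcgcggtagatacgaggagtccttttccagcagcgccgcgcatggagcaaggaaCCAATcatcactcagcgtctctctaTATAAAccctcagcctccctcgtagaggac
H4C8 (chr6:26285535-26285654, minus strand): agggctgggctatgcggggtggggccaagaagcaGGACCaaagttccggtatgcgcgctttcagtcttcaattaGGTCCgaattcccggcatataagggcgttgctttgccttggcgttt
H4C2 (chr6:26027284-26027403, minus strand): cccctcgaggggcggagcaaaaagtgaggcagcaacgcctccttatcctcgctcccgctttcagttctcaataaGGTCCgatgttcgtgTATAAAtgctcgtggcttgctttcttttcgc
H4C13 (chr6:27873535-27873654, minus strand): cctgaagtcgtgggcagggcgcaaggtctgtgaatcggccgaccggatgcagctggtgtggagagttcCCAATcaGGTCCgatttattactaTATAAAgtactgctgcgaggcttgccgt
H2AC18 (chr1:149842751-149842870, minus strand): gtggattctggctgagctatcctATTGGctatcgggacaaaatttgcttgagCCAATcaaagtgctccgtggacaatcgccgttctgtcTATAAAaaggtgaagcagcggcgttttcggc
H2AC19 (chr1:149850941-149851060, plus strand): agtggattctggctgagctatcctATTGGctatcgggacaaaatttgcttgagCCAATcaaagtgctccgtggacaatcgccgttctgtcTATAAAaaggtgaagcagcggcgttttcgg

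A peak within 1 kb of either gene boundary was found for 44 of the 70 histone genes in the si-CHAF1A list (62.9%, 95% exact interval 50.5 to 74.1) and for 41 in the si-Ctrl list (58.6%, 46.2 to 70.2). Among all protein-coding genes, 64.3% had such a peak in the si-CHAF1A list and 61.1% in the si-Ctrl list, so the histone genes as a whole lay at the background. The intervals cover counting error only, and neighbouring genes share peaks. A gene of this size offers a short window, and 61 of the 70 members are under 1 kb long. Of the 466 other protein-coding genes under 1 kb, 24.5% had a peak in the si-CHAF1A list and 18.7% in the si-Ctrl list, with 14.8% in both, 9.66% in the si-CHAF1A list only and 3.86% in the si-Ctrl list only. Those short genes were not matched to histone genes in anything but length.

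A peak in both lists was found for 41 of the 70 histone genes (58.6%), near the 56.2% of all protein-coding genes. A further 3 histone genes had a peak in the si-CHAF1A list only, against 8.07% of all protein-coding genes. No histone gene had one in the si-Ctrl list only, against 4.9%, and 26 had a peak in neither list. The absence of si-Ctrl-only genes depended on list length and threshold: with equal numbers of peaks per list, 4 histone genes had a si-Ctrl peak only and 2 a si-CHAF1A peak only.

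Classes differed in how many members carried a peak. H2A had the highest share, 13 of 17 genes in each list. For H2B it was 13 of 18 in the si-CHAF1A list and 11 of 18 in the si-Ctrl list, and for H3 8 of 13 in each. H4 had 8 of 15 in the si-CHAF1A list and 7 of 15 in the si-Ctrl list. H1, the linker histone, had 2 of 7 in each. The exact 95% interval of the H1 share ran from 3.67 to 71.0% in each list and that of H2A from 50.1 to 93.2%, so the intervals overlapped. In each list, the interval of every class included the share of all protein-coding genes, 64.3% for si-CHAF1A and 61.1% for si-Ctrl.

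**Figure D1:**
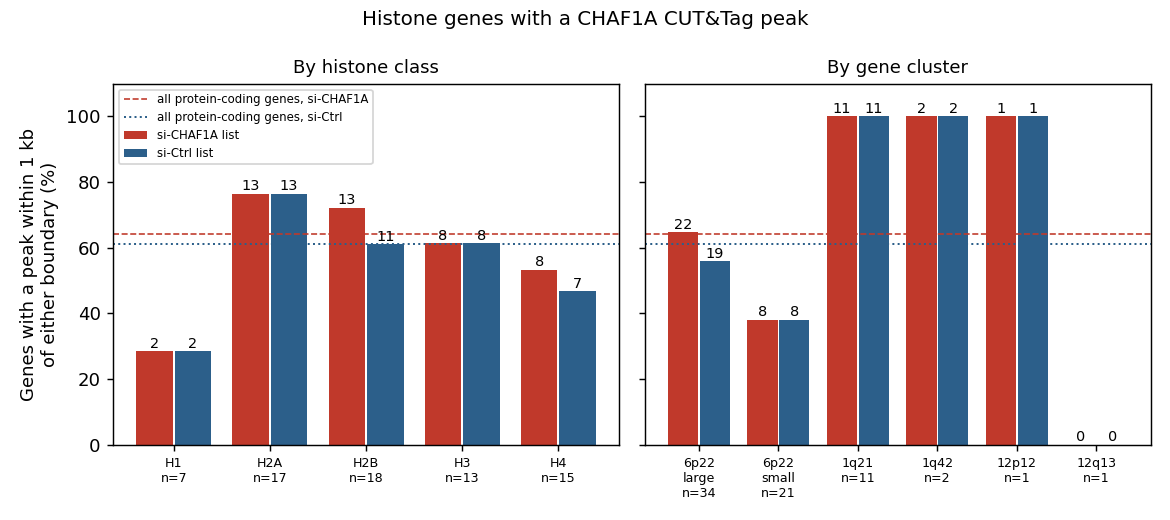
Percentage of histone genes with a peak within 1 kb of either boundary in the si-CHAF1A list (left bar) and the si-Ctrl list (right bar), by class and by cluster; the numbers over bars count genes and horizontal lines give the share of all protein-coding genes (64.3% and 61.1%). All 11 genes of 1q21 had a peak in both lists, against 8 of 21 in the small 6p22 cluster.

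The clusters ran from all genes with a peak to a share below that of all protein-coding genes. That share was 64.3% in the si-CHAF1A list and 61.1% in the si-Ctrl list. All 11 genes at 1q21, both genes at 1q42 and H4C16 at 12p12 had a peak in both lists. Some of the 1q21 genes are near-identical copies or were counted through a neighbour's peak. In the large 6p22 cluster 22 of 34 genes had a si-CHAF1A peak and 19 a si-Ctrl peak. In the small 6p22 cluster it was 8 of 21 in each list. There the 3 H3 genes, the 4 H4 genes and H1-5 had no peak, and the 8 genes with one all encode H2A or H2B.

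Genes without a peak stood in runs. In the large cluster, 7 neighbours from H1-3 to H2BC10 (chromosome 6, 26234212 to 26273412) had none: H1-3, H4C6, H4C7, H3C7, H2BC9, H3C8 and H2BC10. Within these 39.2 kb and 1 kb on each side lay 0 si-CHAF1A peaks and 1 si-Ctrl peak. In the small cluster, a run of 7 genes from H2BC13 to H4C12 spanned 24.1 kb and held 1 peak of each list. It consists of H2BC13, H2AC13, H3C10, H2AC14, H2BC14, H4C11 and H4C12. A run of 5 genes, H2AC16, H1-5, H3C11, H4C13 and H3C12, spanned 25.5 kb and held no peak of either list. These 3 runs account for 19 of the 26 genes without a peak. The others were H2AC1, H2BC1 and H1-1 at the start of the large cluster, H1-6 and H4C4 within it, H4C9 in the small cluster, and H1-7.

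Whether these genes lacked signal, or held signal below the threshold, cannot be read from peak lists. At the genome background, the lowest pileup that passed was 23 reads in the si-CHAF1A list, 2.71 times that background. In the si-Ctrl list it was 20 reads, 3.15 times. The nearest peak to a gene without one lay at a median of 12040 bp in the si-CHAF1A list and 11611 bp in the si-Ctrl list. The closest was at H1-7, 1932 bp away in the si-CHAF1A list and 2003 bp in the si-Ctrl list. On the inner side of the 1 kb limit, every one of the 44 si-CHAF1A and 41 si-Ctrl genes kept a peak with a 500 bp window.

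**Figure D2:**
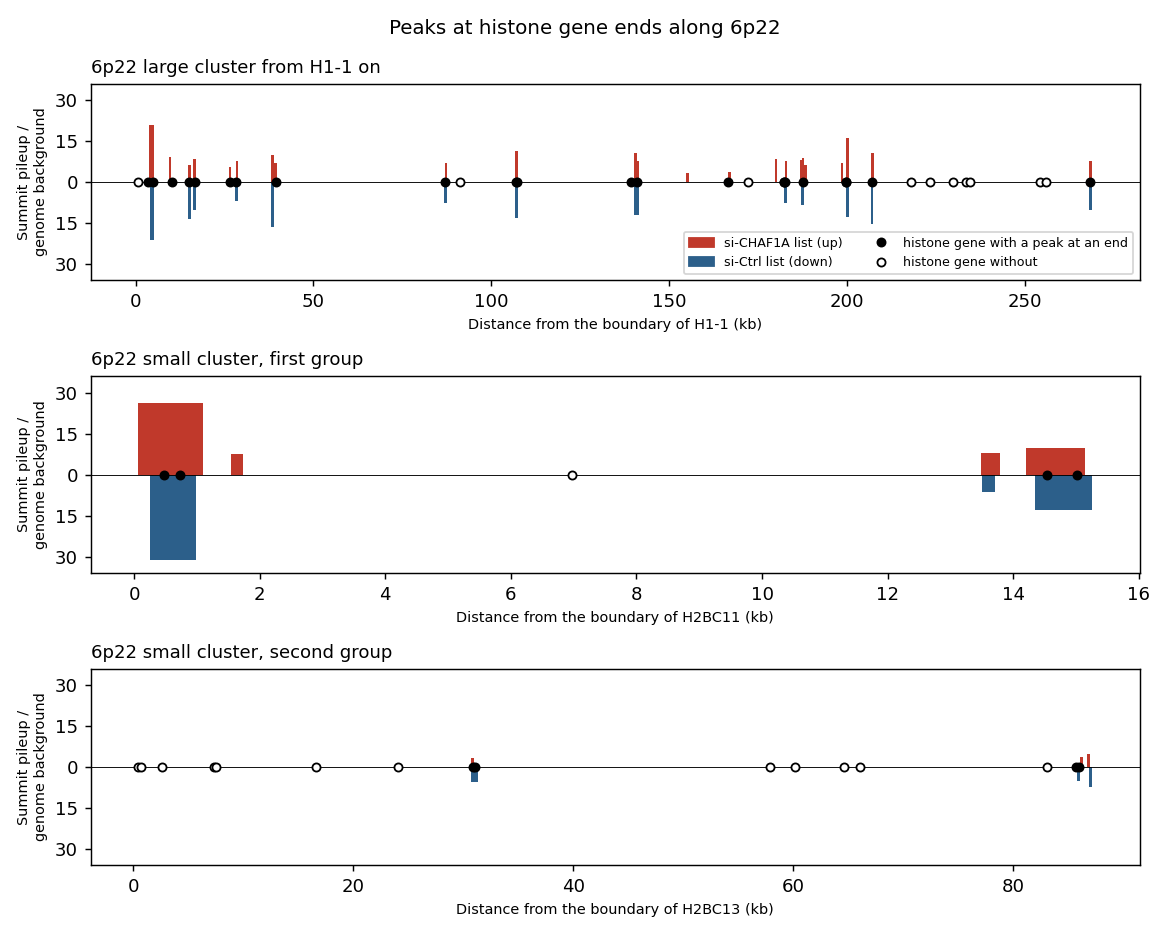
Peaks at histone gene ends along 6p22, as summit pileup over genome background (si-CHAF1A upward, si-Ctrl downward) against distance in kb from the first gene drawn; bar width is peak width, widened where too thin to draw, and dots mark 5′ ends (gene centres where the strand is not given), filled where the gene has a peak. The first panel leaves out H2AC1 and H2BC1, and the runs of 7, 7 and 5 open dots are the genes without peaks.

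The clusters also differed in peak density. Between the outermost histone genes of 1q21 and 1 kb beyond, the si-CHAF1A list had 13.1 peaks per 100 kb and the si-Ctrl list 12.1, against 3.37 and 2.72 over chromosome 1. In the large 6p22 cluster the densities were 6.95 in the si-CHAF1A list and 4.99 in the si-Ctrl list, against 2.81 and 2.23 in the same lists over chromosome 6. The small 6p22 cluster had 3.67 si-CHAF1A and 6.55 si-Ctrl peaks per 100 kb, with 28 si-CHAF1A peaks and 50 si-Ctrl peaks. Most of these lay away from histone genes, 21 si-CHAF1A and 44 si-Ctrl peaks. Among them, 11 si-CHAF1A and 30 si-Ctrl peaks lay within 1 kb of 1 of the 51 tRNA genes in that span. At the histone genes of the small cluster itself there were 7 si-CHAF1A and 6 si-Ctrl peaks.

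In all, 41 si-CHAF1A peaks and 32 si-Ctrl peaks lay at the ends of histone genes. Of the si-CHAF1A peaks 30 overlapped a si-Ctrl peak by at least 1 bp (73.2%, 57.1 to 85.8), beside 74.3% for all peaks at ends of protein-coding genes. Of the si-Ctrl peaks 31 overlapped a si-CHAF1A peak (96.9%, 83.8 to 99.9), beside 83.6%. In the full lists, the 1 si-Ctrl peak without an overlap lay at H2AC17 and H2BC17 and was weak, with a fold enrichment of 2.75. H2AC17 was thus the 1 gene with a peak in both lists at sites that did not overlap. A single peak often served several genes: 17 peaks in each list lay at the ends of more than 1 histone gene.

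Back-to-back pairs show this sharing. Among the 65 members whose strand the promoter table gives there are 13 divergent pairs with less than 1 kb between the 5′ ends, of which 11 join an H2A and an H2B gene. H2BC12 and H2AC12, which share a peak in both lists, are not counted, since no strand is given for H2AC12. In 9 of the 13 a peak reached both genes, in both lists alike, and in the other 4 neither gene had a peak in either list. The peaked pairs were H2BC11 with H2AC11, H2BC8 with H2AC8, H2BC4 with H2AC6, H2AC7 with H2BC7, H3C4 with H2BC7, H2AC15 with H2BC15, H2AC17 with H2BC17, H2BC21 with H2AC20 and H2AC25 with H2BC26. Pairs without peaks were H2AC1 with H2BC1, H2AC14 with H2BC14, H2BC13 with H2AC13 and H3C7 with H2BC9. H2AC7 and H3C4 have an annotated start in common, so their pairs with H2BC7 are 1 site. Since the windows of a pair overlap, its genes are not separate observations, and a peak near 1 of them mostly reaches the other. Such a peak need not lie between the 5′ ends: the si-CHAF1A peak at H2AC7 and H2BC7, 26199666 to 26200131, lay past the H2BC7 start.

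Peak position was read against the 5′ end for the 65 members whose start and strand the promoter table gives; H4C1, H4C3, H2AC12, H3C11 and H3C12 are not in it. A peak covered the 5′ end of 28 of these 65 genes in the si-CHAF1A list (43.1%) and of 27 in the si-Ctrl list (41.5%). Other protein-coding genes had 44.4% in the si-CHAF1A list and 44.6% in the si-Ctrl list, so at 5′ ends too the members lay near the background. In 23 genes both lists covered it. H2A had 10 of 16 in the si-CHAF1A list and 9 of 16 in the si-Ctrl list. For H2B it was 7 in the si-CHAF1A list and 10 in the si-Ctrl list of 18, for H3 5 in the si-CHAF1A list and 3 in the si-Ctrl list of 11, and for H4 5 of 13 in each.

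H1 stood lowest, with a peak over the 5′ end of 1 of 7 genes in the si-CHAF1A list, H1-2, and of 0 in the si-Ctrl list. For H1-2, which encodes a widely expressed linker histone, the strongest peak of each list straddled the 3′ end and had its summit past it. That summit was 1018 bp downstream of the start in the si-CHAF1A list and 1019 bp in the si-Ctrl list, in a gene of 731 bp. A weaker si-CHAF1A peak at 26056110 to 26056563, with a fold enrichment of 3.11, covered the 5′ end. H1-4 had its peak past its 3′ end as well, on the side of the neighbouring H2BC5. The summit lay 1200 bp from the H1-4 start in the si-CHAF1A list and 1611 bp in the si-Ctrl list, which is −592 bp and −181 bp from the H2BC5 start, negative values being upstream. H1-1, H1-3, H1-5, H1-6 and H1-7 had no peak at either end.

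Among members with a peak and a known start, the strongest peak itself covered the start in 25 of 41 genes (61%) in the si-CHAF1A list and 22 of 38 (57.9%) in the si-Ctrl list, against 63.4% and 67.1% of all protein-coding genes. The summit of the strongest peak lay within 500 bp of the 5′ end in 26 of 41 genes (63.4%) in the si-CHAF1A list and in 27 of 38 (71.1%) in the si-Ctrl list. For all protein-coding genes with a peak these shares were 70.9% in the si-CHAF1A list and 74.6% in the si-Ctrl list. The median distance was 319 bp in the si-CHAF1A list and 180 bp in the si-Ctrl list, against 204 bp and 165 bp for all protein-coding genes with a peak in the same lists. In members under 1 kb, the summit lay upstream of the gene in 13, within it in 12 and downstream in 8 of 33 si-CHAF1A genes. In the si-Ctrl list these counts were 18, 5 and 7 of 30. Peaks at histone genes ranged from 184 to 2699 bp wide in the si-CHAF1A list and from 173 to 2175 bp in the si-Ctrl list, and 1 peak covered a whole gene of under 1 kb in 7 genes in the si-CHAF1A list and in 5 in the si-Ctrl list.

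Peak strength was read from the strongest peak of each gene with a peak. That peak had a median fold enrichment of 3.87 in the si-CHAF1A list and 4.52 in the si-Ctrl list, against 4.43 and 5.44 over all protein-coding genes with a peak. Fold enrichment is the authors' value and sets the pileup against its surroundings. Those surroundings were higher here, with a median local background of 23.2 reads in the si-CHAF1A list and 16.2 in the si-Ctrl list, against 17.3 and 13.2. Against the genome background instead, the median summit was 10.9 times as high in the si-CHAF1A list and 13.1 times in the si-Ctrl list. All protein-coding genes had 9.54 times in the si-CHAF1A list and 11.8 times in the si-Ctrl list. The 11 genes of 1q21, which share peaks and include near-identical copies, had medians of 22.3 times in the si-CHAF1A list and 24.1 times in the si-Ctrl list. Genes with a peak in the large 6p22 cluster had 9.01 times in the si-CHAF1A list, below all genes, and 12.8 times in the si-Ctrl list, above them. Those of the small 6p22 cluster were below all genes in both, with 7.25 times in the si-CHAF1A list and 10.2 times in the si-Ctrl list.

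The tallest peaks were at 1q21, over H2AC18 and H2AC19, which encode H2A. Around H2AC18 the si-CHAF1A peak spanned 149841243 to 149843662, with a pileup of 778 reads, 91.6 times the genome background. The si-Ctrl peak spanned 149842563 to 149843565 with 446 reads, 70.3 times. Both summits lay just upstream of the gene, at −179 bp from its start in the si-CHAF1A list and −174 bp in the si-Ctrl list. At H2AC19 the same interval, 149850395 to 149852569, was called in both lists, with 730 reads (86.0 times) in the si-CHAF1A list and 477 reads (75.2 times) in the si-Ctrl list. Its summit lay at −178 bp from the start in each list.

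H2AC18 and H2AC19 are copies, and reads from 1 can be placed at the other. Their promoters are 99.3% identical over 301 aligned positions, those of H3C14 and H3C15 97.4% and those of H4C14 and H4C15 100%. The sources used here do not state what was done with reads that have several equally good positions. Values at these 6 genes are therefore uncertain as to which copy they belong to. The local background there reached 109 reads in the si-CHAF1A list and 61.3 in the si-Ctrl list, the highest around any histone gene. The 1 other pair of promoters at least 95% identical, H4C11 and H4C12 (98.3%), had no peak in either list.

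Some H3 and H4 genes of 1q21 were counted with peaks over their neighbours. H3C15 and H3C14 encode H3.2, and no peak covered the 5′ end of either. H3C15 in both lists, and H3C14 in the si-CHAF1A list, were counted with the peak over the H2A neighbour. In the si-Ctrl list H3C14 had a separate peak at 149841314 to 149842327, with 244 reads, 38.5 times the genome background. H4C15 is annotated over 16753 bp and took its strongest peak from H2AC18 at its far end. At its 5′ end it had a peak of 140 reads (16.5 times the genome background) in the si-CHAF1A list and 102 reads (16.1 times) in the si-Ctrl list. H4C14 had 155 reads (18.3 times) in the si-CHAF1A list and 102 reads (16.1 times) in the si-Ctrl list. H2BC18 and H3C13 share a peak of 189 reads (22.3 times) in the si-CHAF1A list and 153 reads (24.1 times) in the si-Ctrl list. At H2BC21, H2AC20 and H2AC21 a shared peak had 151 reads (17.8 times) in the si-CHAF1A list and 108 reads (17 times) in the si-Ctrl list.

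Outside 1q21 the strongest member peak covered the 5′ ends of H2BC11 and H2AC11 and ran into both genes. It spanned 27132382 to 27133406 in the si-CHAF1A list and 27132575 to 27133307 in the si-Ctrl list. Its fold enrichment was 9.57 in the si-CHAF1A list and 9.29 in the si-Ctrl list, the highest among the members in each list. The pileup was 221 reads (26 times the genome background) in the si-CHAF1A list and 199 reads (31.4 times) in the si-Ctrl list. In both lists the summit lay at −7 bp from the H2BC11 start and −241 bp from the H2AC11 start, between the genes and within the run printed for H2BC11.

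In the large 6p22 cluster, H3C1 and H4C1, which encode H3.1 and H4, shared a peak over H4C1. It had 178 reads (21 times) in the si-CHAF1A list and 135 reads (21.3 times) in the si-Ctrl list. H3C6, also an H3.1 gene, had the highest fold enrichment of the large cluster, 6.77 in the si-CHAF1A list and 8.84 in the si-Ctrl list. Its summit fell 14 bp after the first annotated start in both lists. The gene has another annotated start downstream that no peak of either list covered. The peaks ended short of it, at 26224433 in the si-CHAF1A list and 26224408 in the si-Ctrl list. H2BC12 and H2AC12 in the small cluster shared a peak of 82 reads in each list, which is 9.66 times the si-CHAF1A background and 12.9 times the si-Ctrl background. H2BC8 with H2AC8 had 137 reads (16.1 times) in the si-CHAF1A list and 81 reads (12.8 times) in the si-Ctrl list. H4C8, the last gene of the large cluster, had 66 reads (7.77 times) in the si-CHAF1A list and 65 reads (10.3 times) in the si-Ctrl list. H4C16 at 12p12 and the pair H2AC25 and H2BC26 at 1q42 had 11 and 14.3 times the genome background in the si-CHAF1A list, against 10.7 and 11.4 times in the si-Ctrl list. H4C16's peak also lies within 1 kb of an end of LOC105369669.

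**Figure D3:**
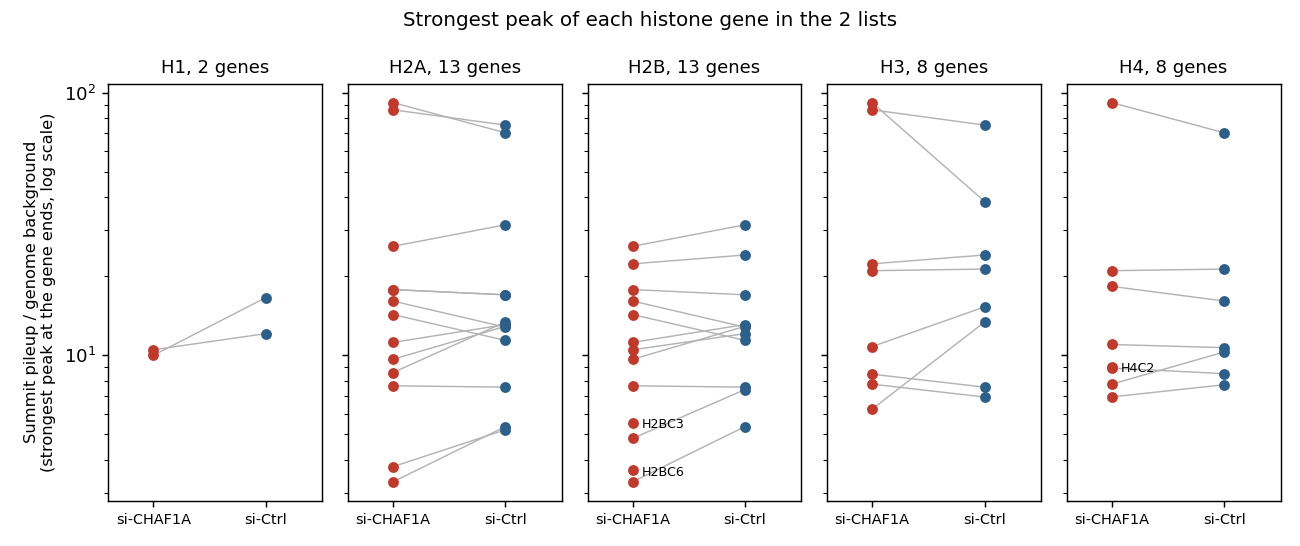
Summit pileup over genome background (log scale) of the strongest peak at each histone gene's ends, si-CHAF1A left and si-Ctrl right, by class; lines join the values of 1 gene, whose peaks in the lists need not overlap. H2BC3, H2BC6 and H4C2 have a si-CHAF1A value only, and the values near 90 belong to 1q21.

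The 3 genes with a si-CHAF1A peak only had fold enrichments below the members' median of 3.87. H4C2 (26026896 to 26027283) had a peak at 26026360 to 26027040 with a fold enrichment of 2.63, a −log10 q of 11 and 77 reads, 9.07 times the genome background. Its summit lay 811 bp after the start, past the gene's end. At H2BC3, with a peak at 26043506 to 26043713, the fold enrichment was 2.72, the −log10 q 7.1 and the summit 5.54 times the genome background. H2BC6, with a peak at 26184028 to 26184211, had the lowest summit and −log10 q of the 3 but the highest fold enrichment, 3.01, with a −log10 q of 5.68 and 31 reads, 3.65 times. The nearest si-Ctrl peak was 4179 bp away at H4C2, 1502 bp at H2BC3 and 15203 bp at H2BC6. All 3 kept their peak when the si-CHAF1A list was rescaled to the depth of the si-Ctrl list. Genes counted in both lists can also hold a si-CHAF1A peak that overlaps no si-Ctrl peak. H3C4 counts in both lists through the peaks at H2AC7 and H2BC7. Over another annotated start it had a si-CHAF1A peak at 26196815 to 26197386 without a si-Ctrl overlap. There the fold enrichment was 3.54 and the −log10 q 16.8, with 72 reads, 8.48 times the genome background.

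Heights in the lists were set side by side for the 40 histone genes whose strongest si-Ctrl peak overlapped a si-CHAF1A peak. These rest on 24 distinct si-Ctrl peaks. The ratio of summit pileup over genome background, si-CHAF1A to si-Ctrl, had a median of 0.985 over the 40 genes (log2 −0.02) and 0.954 over the 24 peaks. Over 10728 protein-coding genes the median was 0.841 (log2 −0.25), and the 5th to 95th percentiles ran from 0.538 to 1.25. The heights of most genes were thus lower in the si-CHAF1A list after this scaling, and the median of the histone genes lay a little above that general shift. The clusters did not share this offset alike. At 1q21, with its near-identical copies, the median over 6 distinct peaks was 1.13. It was 0.881 over 12 in the large 6p22 cluster and 0.699 over 4 in the small one. The single peaks at 1q42 and 12p12 had 1.25 and 1.02. A ratio under 1 over 1.5 was seen for 6 of the 40 genes, against 19.1% of all protein-coding genes, and a ratio over 1.5 for 1, against 0.82%. The share lower was near the background, and the 1 gene higher was H3C14, described next.

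By cluster the ratios went different ways. All 4 distinct peaks of the small 6p22 cluster had a ratio below the median of all genes, from 0.615 to 0.829. The 95% counting interval of each of these 4 ratios included both 1 and that median, 0.841. In the large cluster 4 of 12 were below it, and the range was 0.466 to 1.26. None of the 6 at 1q21 was below it, with a range of 0.922 to 2.38. The top value, at H3C14, compares different summits: the si-CHAF1A peak there spans 2 si-Ctrl peaks, and its summit belongs to H2AC18. At H2AC18 itself the ratio was 1.30 (95% interval for counting error 1.16 to 1.47), and at H2AC19 1.14 (1.02 to 1.29). Since the lists were scaled by the genome background alone, a ratio above or below 1 has no replicate check.

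The lowest ratio, 0.466 (0.324 to 0.664), was at H3C2, where the narrow si-Ctrl peak of 173 bp upstream of the gene had 85 reads and the overlapping si-CHAF1A peak 53. Those summits differ in place, at 177 bp from the H3C2 start in the si-CHAF1A list and at −137 bp in the si-Ctrl list. H2AC4 is counted with the same peak, and at its own 5′ end had 73 reads (8.60 times) in the si-CHAF1A list and 65 reads (10.3 times) in the si-Ctrl list. H1-2 had 85 reads (10.0 times) in the si-CHAF1A list and 105 reads (16.6 times) in the si-Ctrl list, a ratio of 0.605 (0.449 to 0.812). H2AC15 with H2BC15 had a ratio of 0.615 (0.359 to 1.04) and H2BC17 one of 0.651 (0.418 to 1.01), intervals that include 1. H2BC11 with H2AC11 had 0.829 (0.682 to 1.01).

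**Figure D4:**
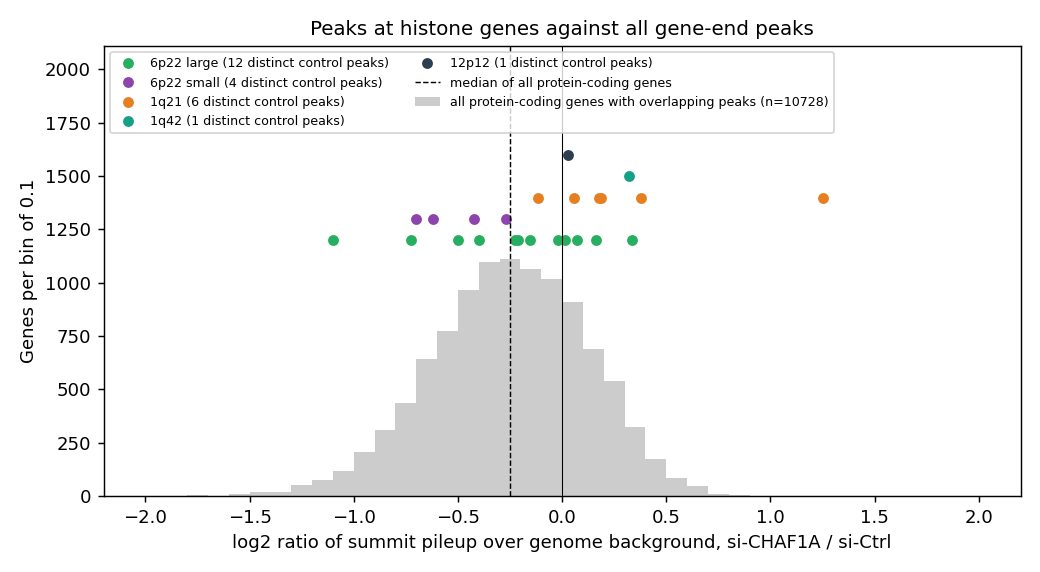
Log2 ratio of summit pileup over genome background, si-CHAF1A over si-Ctrl: grey bars count 10728 protein-coding genes in bins of 0.1, and dots are the 24 distinct si-Ctrl peaks at histone genes by cluster, with no meaning in their height. The 4 dots of the small 6p22 cluster lie left of the all-gene median of −0.25 and the 6 dots of 1q21 right of it.

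Promoter letters differed between the classes. The 65 members with an entry have 69 starts, each with 250 bases before it and 50 after. TATAAA was found on either strand in 65.2% of these windows, against 9.47% of 22183 windows of protein-coding genes, and CCAAT in 85.5%, against 34.7%. ATTTGCAT was in 75.0% of H2B and 68.8% of H2A windows, many of which overlap in a pair, and in 1.65% of all. AAACACA was in all 7 H1 windows, against 4.4% of all, and GGTCC in 12 of 13 H4 windows, against 50.5% of all. The members are poor in G and C, with a median of 43.3% against 62.3%, and hold a median of 11 CG pairs against 21.

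Windows of members with a peak in either list (45) and in neither list (24) were set side by side. TATAAA was in 66.7% of the first and 62.5% of the second, and CCAAT in 86.7% and 83.3%. ATTTGCAT was in 44.4% and 29.2%, AAACACA in 11.1% and 20.8%, and GGTCC in 28.9% and 41.7% in the same order. The groups differ in their makeup by class. Median G and C was 43.0% with a peak and 44.5% without, and the median number of CG pairs 11 in each. A match describes letters and is not a measured binding site.

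Genes that act on histone genes nearly all had a peak. Of 21 genes of histone gene expression, 20 had one in the si-CHAF1A list and all 21 in the si-Ctrl list, where 64.3% and 61.1% of protein-coding genes did. Highest by −log10 q in the si-Ctrl list were YY1, a zinc finger regulator, CDK2, the kinase that phosphorylates NPAT, SYMPK, a scaffold of 3′ processing, and NPAT, the coactivator of histone genes. Their summits were 148, 36.7, 22.1 and 13.4 times the genome background in the si-CHAF1A list, against 137, 79.8, 35.2 and 24.6 times in the si-Ctrl list. SLBP, which binds the stem-loop of histone mRNA, had 18.1 times in the si-CHAF1A list and 19.7 times in the si-Ctrl list. HINFP, an activator of H4 genes, had 18.4 times in the si-CHAF1A list and 23.7 times in the si-Ctrl list. ERI1, an exonuclease of histone mRNA, had a si-Ctrl peak only, with a fold enrichment of 4.22. Among all protein-coding genes 4.9% had a si-Ctrl peak only.

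Of 11 histone variant genes outside the 70 members, 8 had a si-CHAF1A peak and 10 a si-Ctrl peak. Among all protein-coding genes 64.3% had a si-CHAF1A peak and 61.1% a si-Ctrl peak. Highest by −log10 q in the si-Ctrl list were H2AZ2, CENPA, the centromeric H3, H2AX, and H3-3B. H2AZ2 had 19.6 times the genome background in the si-CHAF1A list and 29.0 times in the si-Ctrl list, and CENPA 12 times in the si-CHAF1A list and 22.4 times in the si-Ctrl list. H2AX had 14.4 times in the si-CHAF1A list and 22.7 times in the si-Ctrl list. H3-3B (26.8 times) and the linker histone gene H1-10 (7.41 times) had a si-Ctrl peak only, as did 4.9% of all protein-coding genes. MACROH2A1 had none.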

How the data were processed

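CHAF1A CUT&Tag was read from 2 peak lists, 1 for each group of 2 samples. Pooling within a group is not stated in the sources used here. The build hg38 and, with no role given, MACS2 2.1.2, fastp 0.20.1, deepTools 3.4.3 and Bowtie2 2.2.5 are named per the submitters' processing notes. In the deposited lists the fold enrichment is a linear ratio of summit pileup to background. Peak p-values and q-values are deposited as −log10 values, the lowest −log10 p being 5.0 in each list. The deposited score is 10 times −log10 p cut to a whole number, in all but 2 peaks of the si-CHAF1A and 1 of the si-Ctrl list, and was not used. The summit offset is in bp, as the authors deposited it.

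Pileup k and background b at each summit were solved from fold = (k + 1)/(b + 1) and the Poisson tail. Of all solved pileups, 99.98% in each list were whole within 0.02 reads. The genome background is the most frequent b. Read totals were not used here, so depth is known only through it. The solver and the overlaps were tested on simulated data and against bedtools. Peaks on other sequences (886 si-CHAF1A, 868 si-Ctrl) were left out. Genes and promoters came from RefSeq tables of GRCh38.p14, positions counting from 1. Intervals are exact binomial (Clopper-Pearson), and those of a ratio are exact conditional binomial intervals of the 2 pileups. All cover counting error only: overlapping fragments need not be independent.

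Members, gene lists and alternatives were chosen with earlier results of these data known. Named with values are the 4 genes per class with the highest si-Ctrl −log10 q, each gene with a peak in 1 list only, all H1 genes, and pair partners. Genes without a peak are named without values. H3C2, H3C4, H3C6, H4C16, H2AC15, H2AC17, H2BC17, H2AC25, H2BC21, SLBP and HINFP with their partners were named after their values were seen. Alternatives were thresholds on q, list length, depth, the window, the summit, the 5′ end, 50% overlap, and 1 gene per peak. A peak shared by site and leaving out 1q21 were added after seeing the data. Software was scipy 1.17.1, Biopython 1.88, matplotlib 3.10.9, pandas 2.3.3 and numpy 2.4.6 under Python 3.11.15.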

Additional observations from a re-analysis of the deposited data

How the results depend on the processing

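No paired analysis was possible because each group has 1 peak list that does not keep its samples apart, and leaving out a sample was not possible for the same reason. Of 78 values under other settings, 65 stayed within 1.5 times a count or within the interval of a share. The number of histone genes with a si-Ctrl peak only, 0 as reported, was 1 with −log10 q of at least 5, with the si-CHAF1A list rescaled to the si-Ctrl depth, and where a gene's peaks had to overlap. It was 2 with the summit in the window, 3 with each peak counted for 1 gene, 4 with −log10 q of at least 10 or equal numbers of peaks per list, and 10 with 50% reciprocal overlap. The number with a si-CHAF1A peak only, 3 as reported, was 13 with 50% reciprocal overlap and 8 with each peak counted for 1 gene, where 26 genes had a peak in both lists. With 50% reciprocal overlap, 56.1% of si-CHAF1A and 71.9% of si-Ctrl peaks were shared. With −log10 q of at least 10, 35 genes had a si-CHAF1A and 37 a si-Ctrl peak, the other order from the 44 and 41 reported, and with equal numbers 39 and 41. The depth of 1 list a group allows no statement on the spread between samples.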
